A study of Rattus norvegicus with 8 samples.

Results

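Death receptors are members of the TNF receptor family that carry a death signal from the cell surface, and 6 receptors (Eda2r, Fas, Tnfrsf1a, Tnfrsf21, Ltbr and Ngfr) and 4 adaptors or regulators (Fadd, Tradd, Ripk1 and Cflar) were examined here. They are 10 of the 24059 genes in the deposited table and were found by their symbols. They were chosen by name and role with the doxorubicin against control fold changes of these data already known, so the differences below describe them and p-values adjusted over all genes only place them within the table. Each symbol had a single row, so the provision for repeated symbols, which takes the row with the highest mean count, was not needed. RNA was sequenced from GFP-positive germ cells of prepubertal transgenic Sprague-Dawley (GCS-EGFP) rats, after polyA enrichment. Doxorubicin, an anthracycline that traps topoisomerase II on DNA, had been given in vivo at 5 mg/kg on postnatal day 6 to 4 rats (numbers 2, 3, 6 and 8), and 4 control rats (numbers 1, 4, 5 and 9) had received vehicle. Cells of both groups were taken 24 h later, and all 8 rats carry the same reporter. Each library is 1 rat, and the labels enter SSC as the cell line although the cells came from animals.

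When a ligand engages Fas, the receptor's death domain recruits the adaptor FADD, which in turn gathers caspase-8 at the membrane, and cFLIP, the product of Cflar, competes with caspase-8 there. TNF receptor 1 works through a different adaptor, TRADD, and the kinase RIPK1, and can lead to NF-kB signalling or to death. In human cells both EDA2R and FAS are known targets of p53, the transcription factor activated by DNA breaks. In the testis, Fas on germ cells and Fas ligand from Sertoli cells are a textbook route of germ cell death.

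Promoter sequences were taken from RefSeq (GRCr8 assembly, 250 bases before to 50 bases after each gene start) and had an entry for 8 of the 10 genes; Ngfr and Tradd were not matched. The promoters of Eda2r (chrX:66280571-66280870, minus strand) and Fas (chr1:241211905-241212204, plus strand) are shown because these 2 genes had the largest fold changes of the 10. They are written 5′ to 3′, with capitals for matches to TATAAA or GGGCGG on either strand.
Eda2r: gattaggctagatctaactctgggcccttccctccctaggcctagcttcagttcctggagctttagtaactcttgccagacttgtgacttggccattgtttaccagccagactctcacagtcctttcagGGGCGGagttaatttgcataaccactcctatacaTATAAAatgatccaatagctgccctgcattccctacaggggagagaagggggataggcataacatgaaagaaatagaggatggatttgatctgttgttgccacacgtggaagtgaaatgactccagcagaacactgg
Fas: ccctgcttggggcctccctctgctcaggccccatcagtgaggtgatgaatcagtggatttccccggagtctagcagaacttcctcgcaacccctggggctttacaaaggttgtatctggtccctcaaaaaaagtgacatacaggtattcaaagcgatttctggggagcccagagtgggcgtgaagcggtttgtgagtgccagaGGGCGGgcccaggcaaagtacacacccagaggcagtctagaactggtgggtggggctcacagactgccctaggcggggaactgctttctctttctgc

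TATAAA matched in 1 of the 8 promoters, that of Eda2r, and in 14.2% of all 33469 promoters of the same length. GGGCGG matched in 6 of the 8 promoters (not in those of Tnfrsf1a and Cflar) and in 33.1% of all promoters. The p53 half-site consensus, which reads the same on both strands, matched in 1 of the 8, that of Cflar, and in 7.98% of all promoters. The matches in both windows shown did not overlap. The Eda2r window held 2 CpG dinucleotides and the Fas window 7, against 13 to 26 in those of Tnfrsf1a, Tnfrsf21, Ltbr, Fadd and Ripk1, 7 in that of Cflar and a median of 7 over all promoters. A match describes the letters of the window only, and sites outside the window were not searched for any of these genes.

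Total estimated counts ran from 41665785 to 58871101 in doxorubicin libraries and from 41253848 to 57700969 in control libraries. Values are given as counts-per-million (CPM) scaled by the TMM method, and 1 CPM stands for 41.3 counts in the smallest library. The table gives no transcript lengths, so levels of the 10 genes were not compared with each other. The marker levels and sums below were not corrected for length or list size and compare cell types only roughly. All 9 germ cell markers exceeded 1 CPM, and their summed level ran from 2445 to 2543 CPM in doxorubicin libraries and from 2423 to 2475 CPM in control libraries. A mean of at least 1 CPM was also reached by all 8 Sertoli cell, 7 of 8 peritubular and stromal and 6 of 7 endothelial genes. The same held for 3 of 4 erythroid, 2 of 10 leukocyte, 1 of 4 nerve and glial and 1 of 6 Leydig cell genes. Sums over markers of other cells were lower, the largest being 147.4 to 167.7 CPM for 7 endothelial genes in doxorubicin libraries and 133.7 to 153.3 CPM in control libraries. Pecam1 (71.6 to 83.7 CPM in doxorubicin and 63.0 to 74.5 CPM in control libraries) and Eng (61.7 to 76.5 CPM in doxorubicin and 55.7 to 65.9 CPM in control libraries) made up most of that sum, and the other 5 endothelial genes stood at 5.40 CPM or below in every library. The 10 leukocyte markers summed to between 8.98 and 10.5 CPM in every library, and Adgre1, Laptm5 and C1qa were below 0.1 CPM on average.

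The comparison of doxorubicin with vehicle asks which receptors and adaptors had a different transcript level a day after the drug. Eda2r rose, and Fas was higher in every treated rat but missed the threshold, while the other 4 receptors and the 4 adaptors and regulators did not pass. All 10 passed the filter on low counts. In edgeR's quasi-likelihood test with Benjamini-Hochberg adjustment over 16976 genes, 1 of the 10 was higher and 0 were lower at an adjusted p below 0.05, where 0.106% of all genes were higher and 0.00589% lower. With unadjusted p-values under 0.05 there were 3 higher and 0 lower (3 in either direction), where 4.19% of all genes were higher and 2.56% lower (6.76% in either direction). DESeq2 called 2 higher and 0 lower, where 0.897% of genes with an adjusted p were higher and 0.0621% lower. The other tool run, limma-voom, called 1 of the 10, where 0.141% of all genes were called in either direction. The median log2 fold change (log2FC, doxorubicin over control) was 0.37 over the 6 receptors and -0.07 over the 4 adaptors and regulators, against -0.0047 over all genes tested. Without doxorubicin rat 2 the receptor median was 0.16, and it ran from 0.31 to 0.45 with any other single library left out, while that of the adaptors and regulators ran from -0.11 to -0.04 with any 1 of the 8 left out.

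**Figure D1:**
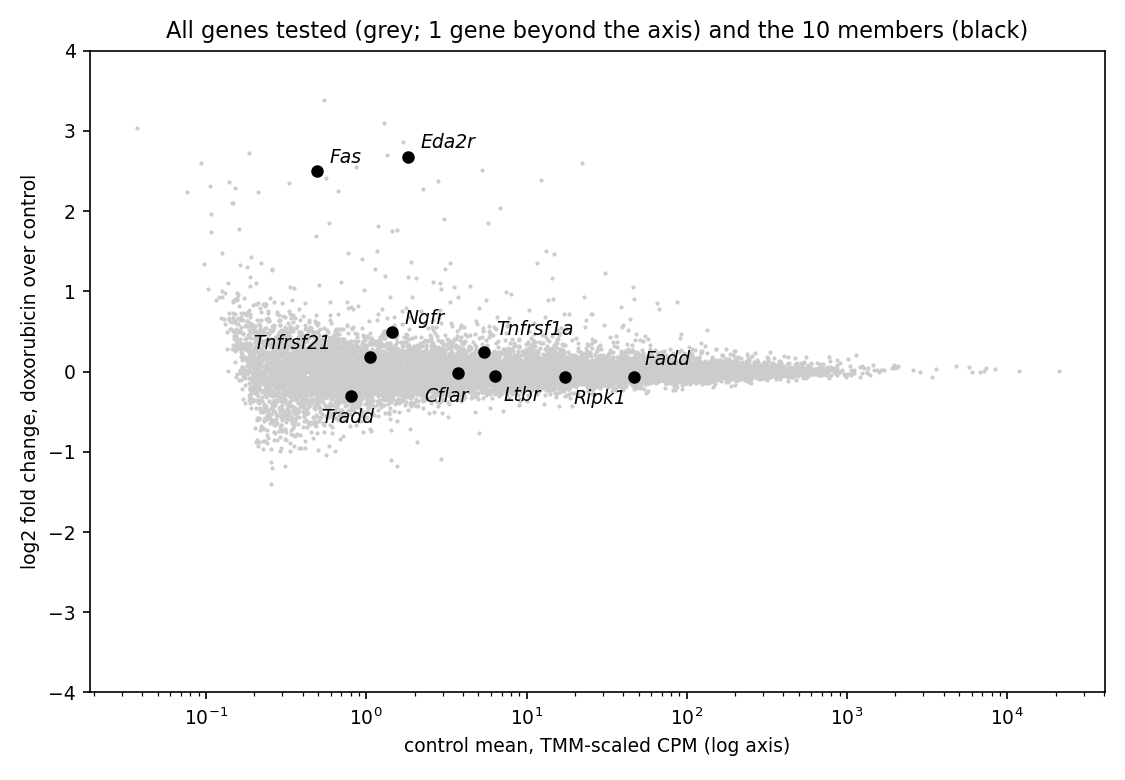
Log2 fold change, doxorubicin over control, against the control mean in TMM-scaled CPM (log axis) for all 16976 genes tested (grey, 1 gene beyond the axis) and the 10 receptor and adaptor genes (black). Eda2r at 2.68 and Fas at 2.50 stand above the other 8, which lie between -0.30 and 0.49.

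Eda2r (ENSRNOG00000013018.9) encodes the receptor for the A2 isoform of ectodysplasin and has no death domain. It stood at 16.1, 9.11, 11.0 and 11.2 CPM in doxorubicin rats 2, 3, 6 and 8, against 1.97, 2.13, 1.73 and 1.51 CPM in control rats 1, 4, 5 and 9. The groups did not overlap, and the lowest treated rat was well above the highest control. Of the 10 genes, 2 had every doxorubicin library above every control library and 0 had every one below, where 2.77% of all genes were above and 1.95% below. The counts behind these values were 461 to 928 per doxorubicin library and 63 to 120 per control library. The mean was 11.8 ± 2.96 CPM after doxorubicin and 1.83 ± 0.27 CPM in controls (SD, n = 4 each), a 6.42-fold difference with a 95% interval from 4.89 to 8.42. Its log2FC was 2.68 ± 0.18 (SE, edgeR adjusted p = 9.63e-05), which placed it at 7 among the 16976 genes ordered from the highest log2FC down and at 1 by p-value. In such bulk samples, a change in the share of cells that carry a transcript and a change in its amount per cell cannot be told apart.

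Fas (ENSRNOG00000019142.8) encodes the receptor of Fas ligand, the archetype of the death receptors. It stood at 5.14, 1.35, 1.81 and 2.86 CPM in doxorubicin rats 2, 3, 6 and 8, against 0.405, 0.443, 0.607 and 0.528 CPM in control rats 1, 4, 5 and 9. Every treated rat lay above every control, and rat 2 stood highest. Behind these values lay 75 to 297 counts per doxorubicin library and only 22 to 32 per control library. The mean was 2.79 ± 1.69 CPM after doxorubicin and 0.495 ± 0.090 CPM in controls (SD, n = 4 each), and the log2FC was 2.50 ± 0.43 (95% interval 1.55 to 3.46). Fas missed the threshold in edgeR (adjusted p = 0.0801), passed DESeq2 (adjusted p = 2.67e-08) and did not pass limma-voom (adjusted p = 0.109). Without doxorubicin rat 2 the log2FC was 2.02 ± 0.27 (edgeR adjusted p = 0.00223), and without doxorubicin rat 3 it was 2.74 ± 0.34 (adjusted p = 0.0397). Without robust fitting the edgeR adjusted p was 0.0258. Leaving out any other single library gave adjusted p from 0.0737 to 0.28.

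**Figure D2:**
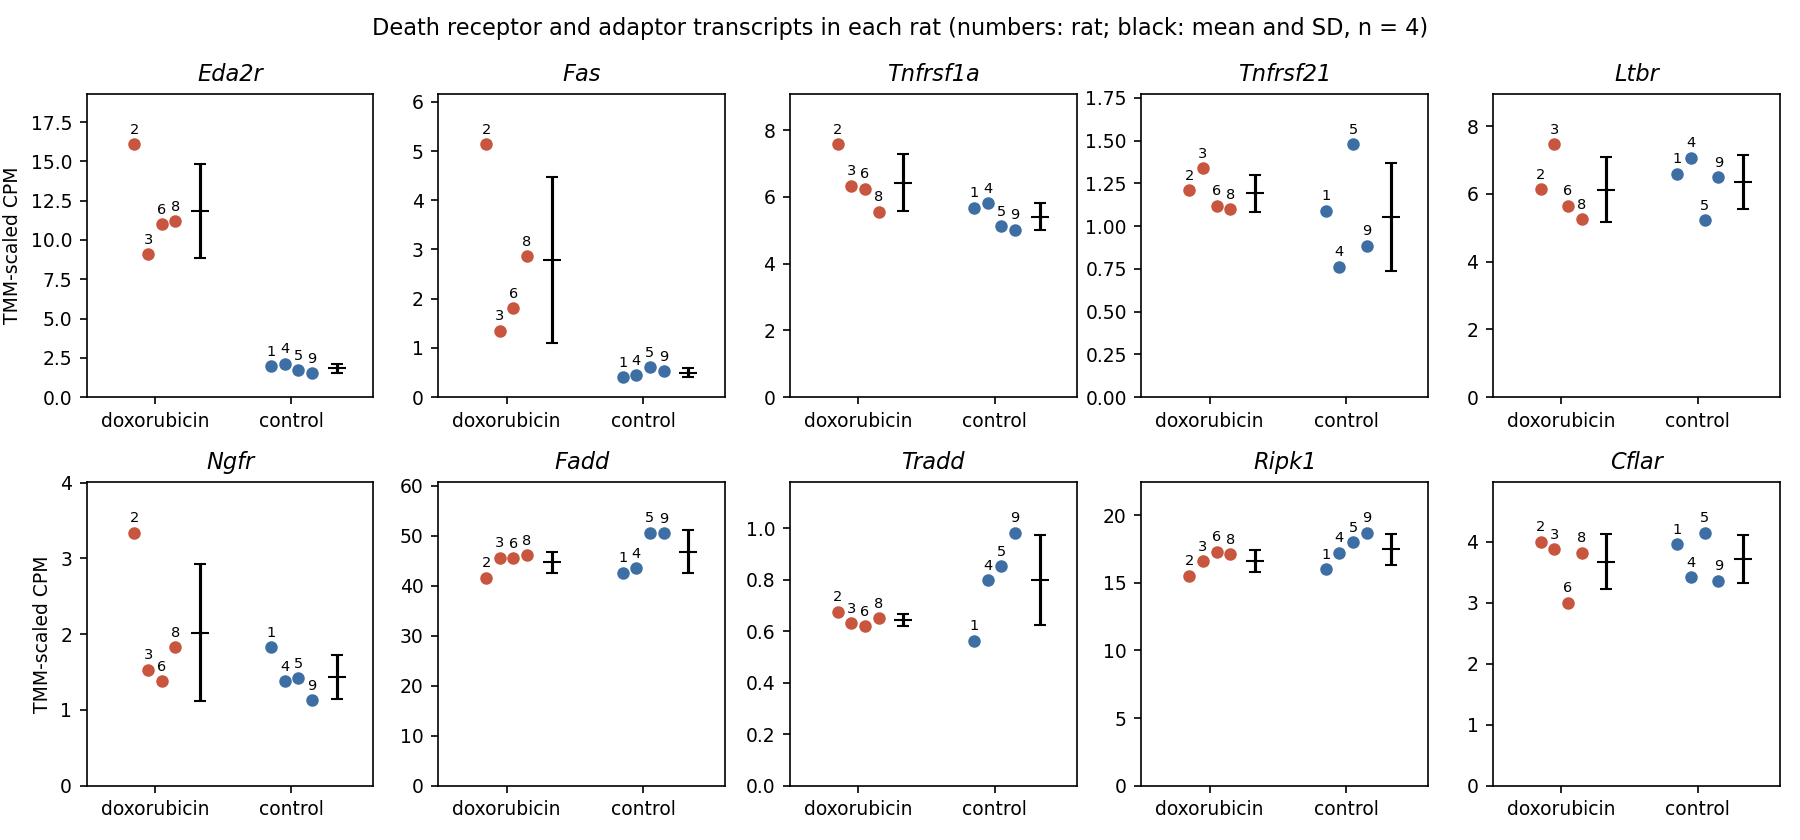
TMM-scaled CPM of each receptor and adaptor gene in each doxorubicin rat (red) and control rat (blue), with rat numbers, group means and SD (black, n = 4). All doxorubicin rats lie above all control rats for Eda2r (9.11 to 16.1 against 1.51 to 2.13 CPM) and Fas (1.35 to 5.14 against 0.405 to 0.607 CPM), and the groups overlap for the other 8 genes.

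Treated rats differed from each other more in Fas than in Eda2r. The coefficient of variation of CPM was 60.5% for Fas and 25.1% for Eda2r among doxorubicin rats, where counting error alone gives 9.51% and 4.14%. Among control rats it was 18.2% for Fas, no more than counting alone gives, and 14.8% for Eda2r, where counting gives 10.5%. Both genes had the same order in the treated rats, with rat 2 highest, then rats 8 and 6, and rat 3 lowest. For Eda2r, rats 6 and 8 differed by less than counting error. On the log2 scale rat 2 exceeded the mean of the other treated rats by 1.41 for Fas and by 0.63 for Eda2r.

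Tnfrsf1a encodes TNF receptor 1, the main death domain receptor of TNF. Its level was 7.58, 6.33, 6.25 and 5.56 CPM in doxorubicin rats 2, 3, 6 and 8, against 5.68, 5.81, 5.12 and 5.01 CPM in control rats 1, 4, 5 and 9. Treated rats 2, 3 and 6 exceeded all controls, and rat 8 lay among the controls. The log2FC was 0.25 ± 0.11 (unadjusted p = 0.0449, edgeR adjusted p = 0.716), and without doxorubicin rat 2 it was 0.16 (adjusted p = 0.972).

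Ngfr encodes the low-affinity neurotrophin receptor p75, a death domain receptor best known in neurons. It measured 3.34, 1.53, 1.38 and 1.83 CPM in doxorubicin rats 2, 3, 6 and 8, against 1.83, 1.38, 1.42 and 1.13 CPM in control rats 1, 4, 5 and 9. Rat 2 was the one treated library above all controls. The log2FC was 0.49 ± 0.27 with all libraries (edgeR adjusted p = 0.803) and 0.13 ± 0.19 without rat 2 (adjusted p = 0.979). Some somatic testis markers, among them Myh11, Des and Dhh, were also highest in that rat, but most of their lists were not. Myh11, smooth muscle myosin, stood at 14.2 CPM there and at 5.86 to 7.92 CPM in the other doxorubicin rats, against 3.96 to 6.23 CPM in controls. Des, which encodes desmin, stood at 7.32 CPM there and at 3.52 to 3.67 CPM in the other doxorubicin rats, against 2.94 to 3.93 CPM in controls. Dhh, a Sertoli cell ligand, stood at 7.60 CPM there and at 3.53 to 4.67 CPM in the other doxorubicin rats, against 3.17 to 4.31 CPM in controls. Of the 8 peritubular and stromal genes, 2 were highest of all libraries in rat 2 and 6 lay below their control mean there, among them Acta2 at -0.50, Dcn at -0.55 and Tagln at -0.29 on the log2 scale. Of the 8 Sertoli cell genes, 2 were highest in rat 2 and 2 lay below their control mean, and Sox9, Wt1 and Gata4 stood at 0.03, -0.02 and -0.01 against it. The 8 peritubular and stromal genes summed to 67.5 CPM in rat 2, 48.2 to 67.5 CPM over doxorubicin libraries and 52.7 to 67.8 CPM over control libraries. The 8 Sertoli cell genes summed to 81.4 CPM in rat 2, 68.5 to 81.4 CPM over doxorubicin libraries and 70.6 to 77.8 CPM over control libraries, and the 4 nerve and glial genes to 12.2 CPM in rat 2, 10.6 to 12.2 CPM over doxorubicin libraries and 10.5 to 12.6 CPM over control libraries. None of the markers in these 3 lists was at 0 in every library. Elsewhere, 4 of 10 leukocyte, 2 of 7 endothelial, 1 of 4 erythroid and 0 of 6 Leydig cell genes were highest in rat 2. The leukocyte, endothelial and erythroid sums were highest of all libraries there, at 10.5, 167.7 and 13.6 CPM, and the Leydig cell sum (8.82 CPM) was not. Most of that erythroid sum was Slc4a1 (10.8 CPM), which was higher in every treated rat than in every control. Hbb, Hba-a1 and Alas2 lay below their control mean in rat 2, at -0.39, -0.50 and -0.49 on the log2 scale. So did 2 of 10 leukocyte, 2 of 7 endothelial and 1 of 6 Leydig cell genes. The part of any of these markers in the Ngfr, Fas and Eda2r values was not tested.

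Tnfrsf21 encodes death receptor 6, and Ltbr the lymphotoxin beta receptor, which lacks a death domain and signals through TRAF proteins. For Tnfrsf21 the levels were 1.21, 1.34, 1.12 and 1.10 CPM in doxorubicin rats 2, 3, 6 and 8, against 1.09, 0.762, 1.48 and 0.887 CPM in control rats 1, 4, 5 and 9. Ltbr stood at 6.14, 7.47, 5.65 and 5.25 CPM in the same doxorubicin rats, against 6.60, 7.07, 5.23 and 6.50 CPM in the controls. The groups overlapped for both genes, and the spread among controls was wider than among treated rats for Tnfrsf21. The log2FC values were 0.18 (95% interval -0.28 to 0.63, edgeR adjusted p = 0.952) for Tnfrsf21 and -0.05 (-0.33 to 0.23, adjusted p = 0.98) for Ltbr, whose sign turned with some libraries left out.

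Of the 4 genes that act below the receptors, edgeR called 0 after adjustment and 0 by unadjusted p, and DESeq2 and limma-voom called 0. Fadd, the adaptor of Fas, stood at 41.6, 45.6, 45.5 and 46.1 CPM in doxorubicin rats 2, 3, 6 and 8, against 42.6, 43.5, 50.6 and 50.5 CPM in control rats 1, 4, 5 and 9. Rat 2, highest for Fas, was the lowest of all 8 for Fadd. Its gap to control rat 1 was about the size of counting error (2.08% in doxorubicin and 2.04% in control libraries). The log2FC of Fadd was -0.07, and its 95% interval of -0.21 to 0.07 covers folds of 0.866 to 1.05. With 1909 to 2670 counts per library, Fadd had the narrowest interval of the 10 genes.

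Cflar encodes cFLIP, the caspase-8 homologue without protease activity that holds back death receptor signalling. It measured 4.00, 3.88, 3.00 and 3.82 CPM in doxorubicin rats 2, 3, 6 and 8, against 3.96, 3.42, 4.15 and 3.36 CPM in control rats 1, 4, 5 and 9. The groups overlapped, with a log2FC of -0.02 (95% interval -0.29 to 0.26, edgeR adjusted p = 0.996), whose sign turned with some libraries left out. There were 0.778, 2.87, 1.66 and 1.34 Cflar counts per Fas count in doxorubicin rats 2, 3, 6 and 8, against 9.78, 7.72, 6.84 and 6.36 in control rats 1, 4, 5 and 9. With Cflar nearly level, this ratio restates the difference in Fas, and its control values rest on 22 to 32 Fas counts per library. The ratio of Cflar counts to those of Casp8, which encodes caspase-8, was 0.514 ± 0.016 after doxorubicin and 0.572 ± 0.104 in controls (SD, n = 4 each). Neither ratio was corrected for transcript length, so each can be read only between libraries.

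Ripk1 encodes a kinase that TNF receptor 1 recruits for either survival or death, and Tradd the adaptor that links them. Ripk1 stood at 15.5, 16.6, 17.3 and 17.1 CPM in doxorubicin rats 2, 3, 6 and 8, against 16.0, 17.2, 18.0 and 18.7 CPM in control rats 1, 4, 5 and 9. Tradd was scarce, at 0.675, 0.632, 0.620 and 0.651 CPM in the doxorubicin rats, against 0.563, 0.797, 0.853 and 0.983 CPM in the controls. Ripk1 in doxorubicin rat 2 lay below all controls, and the other treated values of both genes lay within the control range. The log2FC was -0.07 (95% interval -0.22 to 0.08, edgeR adjusted p = 0.942) for Ripk1 and -0.30 (-0.76 to 0.16, adjusted p = 0.885) for Tradd. With 26 to 39 Tradd counts per doxorubicin library and 32 to 45 per control library, counting error alone was 17.4% in doxorubicin and 15.8% in control libraries.

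**Figure D3:**
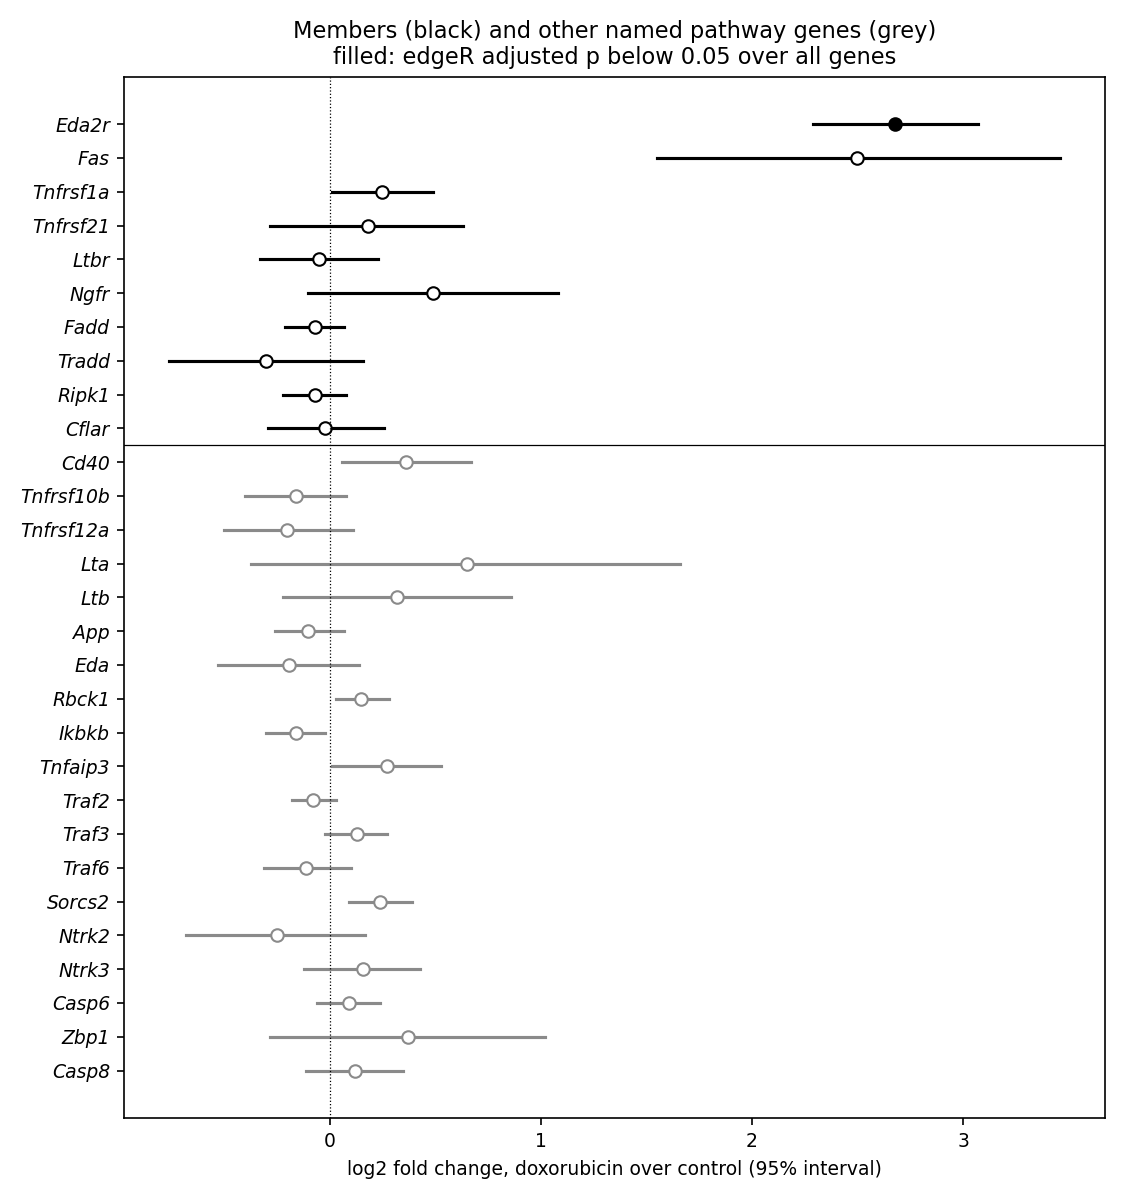
Log2 fold change, doxorubicin over control, with 95% intervals, for the 10 receptor and adaptor genes (black) and other named genes of the pathway (grey). The filled point, Eda2r, passed edgeR over all genes, and the intervals of Fadd and Ripk1 span -0.22 to 0.08.

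The rest of the pathway was examined through 5 lists with 74 genes, of which 66 were tested. Of the 66, edgeR called 0 after adjustment, while by unadjusted p 5 were higher and 1 lower (4.19% and 2.56% of all genes). DESeq2 called 1 higher (0.897% of genes with an adjusted p) and limma-voom called 0. Positive and negative log2FC were equal in number, 33 each, with a median of 0.00, where 47.8% of all genes were positive. In 3 of the 66 every doxorubicin library lay above every control library and in 1 below, where 2.77% and 1.95% of all genes did.

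Of 11 ligand genes of the 6 receptors, 5 had too few counts for a test. Eda, which encodes ectodysplasin and so the ligand of Eda2r, stood at 8.94 ± 1.47 CPM after doxorubicin and 10.2 ± 2.06 CPM in controls (SD, n = 4 each), for a log2FC of -0.19 (95% interval -0.53 to 0.14). Isoforms A1 and A2 were not separated in the table. Faslg, the Fas ligand, had 12 counts over the 4 doxorubicin libraries and 8 over the 4 control libraries, and Tnf had 11 over the doxorubicin and 10 over the control libraries, both too few for a test. App, the amyloid precursor reported to bind death receptor 6, had a log2FC of -0.10 (95% interval -0.26 to 0.07). Of the 6 ligand genes tested, edgeR called 0 with or without adjustment, and DESeq2 and limma-voom called 0. The smallest p-values belonged to Lta and Ltb, the lymphotoxins, and to App. The log2FC was 0.65 (95% interval -0.37 to 1.66) for Lta and 0.32 (-0.22 to 0.86) for Ltb. Lta had only 2 to 29 counts per library, and without doxorubicin rat 2 its log2FC was 0.15.

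Among 19 other TNF receptor family genes, 16 were tested, with 9 positive and 7 negative log2FC and a median of 0.06. Over all genes 47.8% were positive. After adjustment edgeR called 0 of them, by unadjusted p it called 1 higher (4.19% of all genes), and DESeq2 and limma-voom called 0. Tnfrsf10b, which encodes the rat receptor of the death ligand TRAIL and is a p53 target in human cells, stood at 4.07 ± 0.21 CPM after doxorubicin and 4.57 ± 0.51 CPM in controls (SD, n = 4 each). Its log2FC was -0.16 (95% interval -0.40 to 0.08), beside 2.68 for Eda2r and 2.50 for Fas. Cd40, a costimulatory receptor, was 1.99 ± 0.17 CPM after doxorubicin and 1.55 ± 0.15 CPM in controls (log2FC 0.36, edgeR adjusted p = 0.595). Its treated rats all lay above all controls, as did those of 2.77% of all genes. Tnfrsf12a, the receptor of TWEAK, had a log2FC of -0.20 (adjusted p = 0.888).

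Receptor-proximal signalling genes were all measured, with 10 positive and 17 negative log2FC among 27 and a median of -0.02. Over all genes 47.8% were positive. After adjustment edgeR called 0, by unadjusted p 2 higher and 1 lower (4.19% and 2.56% of all genes), and DESeq2 and limma-voom called 0. The smallest p-values belonged to Rbck1, a subunit of the linear ubiquitin ligase, Ikbkb, a kinase of NF-kB activation, and Tnfaip3, the A20 brake on NF-kB. Their log2FC values were 0.15, -0.16 and 0.27 (edgeR adjusted p = 0.595, 0.651 and 0.712). For Ikbkb every treated rat lay below every control, as for 1.95% of all genes. Traf3 and Traf6, adaptors that EDA2R binds in human cells, had log2FC of 0.13 and -0.11, and Traf2, an adaptor of TNF receptor 1, had one of -0.08.

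Partners of Ngfr numbered 9, all tested. Of these, edgeR called 0 after adjustment and 1 higher by unadjusted p (4.19% of all genes), and DESeq2 and limma-voom called 0. Sorcs2, a sortilin-type co-receptor of p75, stood at 17.9 ± 1.33 CPM after doxorubicin and 15.2 ± 0.42 CPM in controls (SD, n = 4 each). Its treated rats all lay above all controls, as for 2.77% of all genes. The log2FC of Sorcs2 was 0.24 ± 0.07 (edgeR adjusted p = 0.329, DESeq2 adjusted p = 0.0796). The neurotrophin receptor kinases Ntrk2 and Ntrk3 had log2FC of -0.25 and 0.16.

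Among 8 death effectors below the receptors, 7 log2FC were positive and 1 negative, with a median of 0.11, where 47.8% of all genes were positive. After adjustment edgeR called 0, and by unadjusted p 1 higher (4.19% of all genes). DESeq2 called 1 higher (0.897% of genes with an adjusted p) and limma-voom 0. Casp8, which FADD recruits, stood at 7.14 ± 0.70 CPM after doxorubicin and 6.57 ± 0.61 CPM in controls (SD, n = 4 each), a log2FC of 0.12 (95% interval -0.11 to 0.35). Casp6 and Zbp1, a further caspase and a sensor upstream of RIPK3, had log2FC of 0.09 and 0.37 (edgeR adjusted p = 0.902 and 0.912).

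The genes whose profiles lay nearest to those of Eda2r and Fas were sought among 13926 genes with a mean of at least 1 CPM. Likeness was the root mean square difference of log2 CPM over the 8 libraries after subtraction of each gene's control mean, so genes of a like fold are favoured. Nearest to Eda2r were Ccng1, which encodes cyclin G1 (0.170), Abcb1b, an efflux pump (0.202), and Inpp5d, a lipid phosphatase (0.304). Nearest to Fas were M1ap, a meiosis gene (0.256), Inpp5d (0.336) and Cd80, a costimulatory ligand (0.348). All of these had their highest level in doxorubicin rat 2, as Eda2r and Fas did, and the choice by profile favours this. In that rat Ccng1 stood 3.25 and Eda2r 3.12 log2 units above the control mean.

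**Figure D4:**
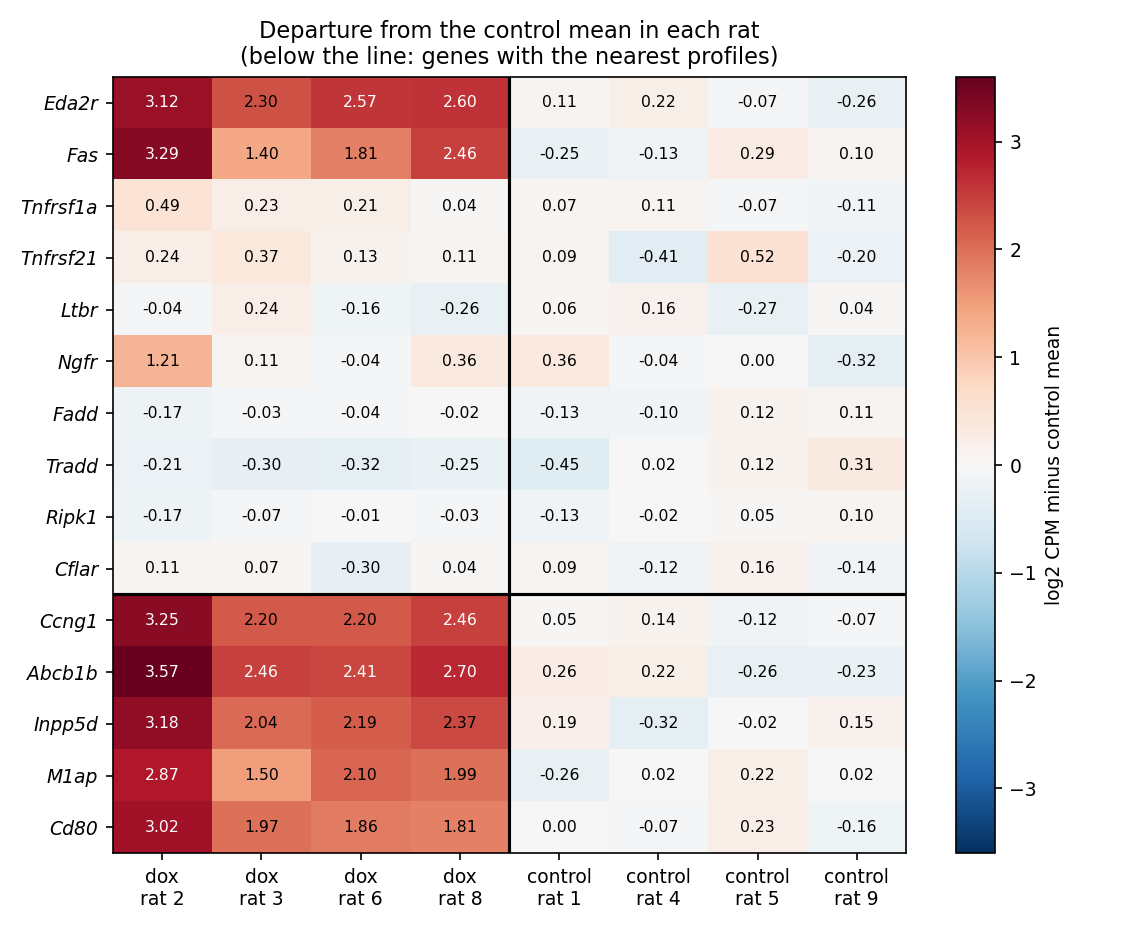
Log2 CPM minus the control mean for each of the 10 receptor and adaptor genes (above the line) and the 5 genes with the nearest profiles (below it), in 4 doxorubicin rats (dox, left) and 4 control rats (right). Doxorubicin rat 2 has the highest value for Eda2r (3.12), Fas (3.29) and Ngfr (1.21), and the adaptor rows stay between -0.45 and 0.31 in all rats.

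The calls of Eda2r and Fas differed in how they held under other settings. Eda2r passed under each of the 7 other settings of tool, scaling, filter or fitting, with log2FC from 2.66 to 2.69. It also passed with any 1 of the 8 libraries left out, with edgeR adjusted p from 5.57e-07 to 0.00222. Fas passed in DESeq2 and in edgeR without robust fitting, and did not pass under the other 5 of these settings, where adjusted p reached 0.125.

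**Figure D5:**
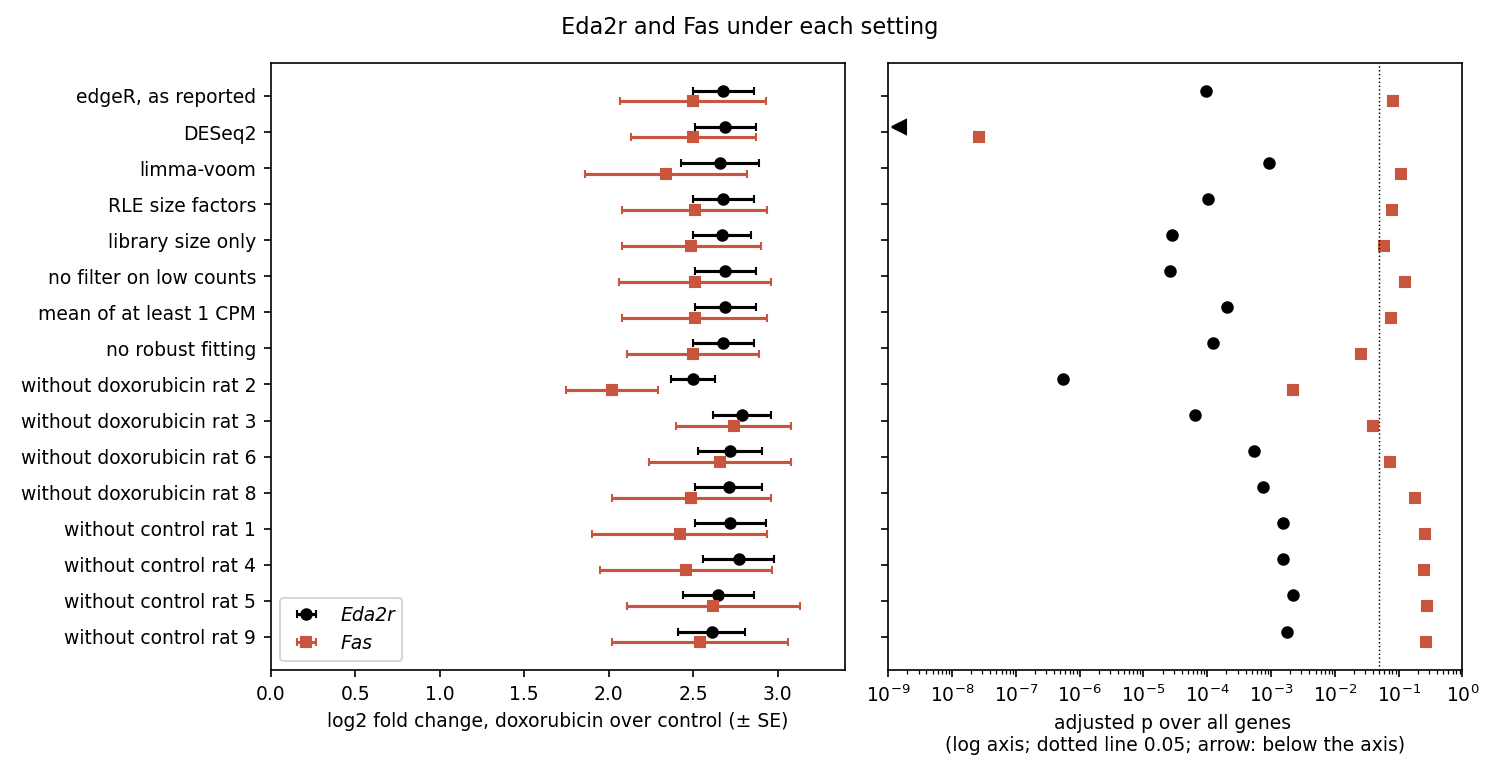
Log2 fold change (± SE, left) and adjusted p over all genes (log axis, right) of Eda2r (black) and Fas (red) in the edgeR fit as reported and under each other setting. Eda2r stays left of the dotted line at 0.05 throughout, while Fas lies between 2.02 and 2.74 on the log2 scale and crosses that line in 4 settings.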

How the data were processed

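PolyA-enriched RNA of 8 rats was prepared with the Arcturus PicoPure kit from samples with a high RIN, per the labels' protocols. Build rn6 and the tools DESeq2 1.40.2, featureCounts, kallisto 0.48.0, Trimmomatic, fastp 0.23.2, MultiQC 1.12 and FastQC 0.11.9 are listed in the submitters' processing notes without role or order. The deposited values are estimated counts per gene, not normalized by the authors; 32.5% to 33.6% per library were not whole (tolerance 1e-06), and all were rounded. For Fas all were whole, and for the other 9 genes none was. How strand and multi-mapped reads were handled is not given in the sources used here, and genes that overlap others or have close copies are therefore uncertain.

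Genes kept by filterByExpr were scaled by TMM and tested in R 4.3.3 with edgeR 4.0.16 (quasi-likelihood, robust, no covariate), Benjamini-Hochberg adjusted over 16976 genes at 0.05. SE was |log2 fold change| divided by the square root of F. DESeq2 1.42.0 and limma 3.58.1 were alternatives, as were other scalings, filters, a threshold of 0.1 and leaving out each library. The procedure was tested on data simulated with a common biological coefficient of variation of 8.82%. Those of Eda2r (16.5%) and Fas (36.5%) are higher, so that simulation does not cover their spread. Log2 CPM profiles used a prior count of 2. Libraries of a group differed beyond sampling noise (chi-square per degree of freedom at least 6.22).

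The members and lists were chosen with earlier results of these data known, so their calls are no independent support. Named pathway genes were, per list, those past the threshold or else the 3 with the smallest p, plus Eda, Faslg, Tnf, App, Traf2, Traf3, Traf6, Casp8 and Tnfrsf10b. For Eda2r and Fas, the 3 nearest profiles were also named. Some genes under this rule are not reported here. Single marker genes were named after their values were seen. Also summed were Leydig cell markers (4.38 to 9.71 CPM after doxorubicin, 5.87 to 8.32 CPM in controls) and erythroid markers (8.02 to 13.6 CPM after doxorubicin, 6.30 to 8.15 CPM in controls). In the erythroid list Slc4a1 alone was higher (log2 fold change 1.28, edgeR adjusted p = 0.0339), while Hbb, Hba-a1 and Alas2 had -1.17, -0.88 and -0.55. These 3 did not pass edgeR or limma-voom, but DESeq2 called Hbb and Hba-a1 lower (adjusted p = 0.0242 and 0.0382).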

Additional observations from a re-analysis of the deposited data

Results flagged for a closer look

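Among 76 groups of 4 libraries examined (the named genes in each treatment group), 5 had 1 library far from the other 3, where chance gives about 1 in 20 groups, or 3.80. Of these, 4 were doxorubicin rat 2, but the groups share the same libraries and are not independent of each other. Fadd, the adaptor of Fas, stood at 41.6 CPM in that rat, below the 45.5 to 46.1 CPM of the other doxorubicin rats. Tnfaip3, the A20 brake on NF-kB, stood at 11.1 CPM in rat 2 and at 8.91 to 9.13 CPM in the other doxorubicin rats. Ntrk2, a neurotrophin receptor kinase, was at 1.16 CPM in rat 2 and at 2.13 to 2.22 CPM in the other doxorubicin rats. Cd80 was at 18.6 CPM in rat 2 and at 8.03 to 9.00 CPM in the other doxorubicin rats. Cd80 was examined because its profile lay near that of Fas, itself highest in rat 2, so its value there follows partly from that choice. In control rat 1, Faslg had 0 counts and thus 0 CPM, with 0.0480 to 0.0569 CPM in the other controls, which is 2 or 3 counts per library.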

How the results depend on the processing

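No paired analysis was possible because no rat number occurs in both groups. The number of the 10 genes called higher was 1 in the edgeR fit and 2 in DESeq2, without robust fitting and at a threshold of 0.1, and ran from 1 to 2 with a library left out; none was called lower in any fit. For Fas the log2 fold change was 2.50 in DESeq2 and 2.50 without robust fitting, both past the threshold, and ran from 2.02 (without doxorubicin rat 2) to 2.74 with a library left out. Of the named genes, the sign turned only for Ltbr and Cflar. Ltbr ran from -0.16 to 0.02 (positive without doxorubicin rat 8 or control rat 4), and Cflar from -0.06 to 0.07 (positive without doxorubicin rat 6 or control rat 1 or 5). Of 149 values of the 10 genes under other settings, 140 kept both sign and side of the threshold. Tradd had no value under the filter of a mean of 1 CPM, which removed it. Of the pathway lists, DESeq2 called 1 gene higher, and 0 were called in the edgeR fit. Over all genes, 18 were higher, with 159 in DESeq2, 52 without robust fitting, 59 at the threshold of 0.1, and 1 to 59 with a library left out. Over all genes 1 was lower, with 11 in DESeq2, 0 under the filter of 1 CPM, and 0 to 3 with a library left out. For the genes near in profile, the call was lost in 32 of their fits and no sign turned; the cause was not tested. Depth limits Tradd, Fas in controls, Faslg and Tnf.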
